A study of Mus musculus with 30 samples.

Results

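The transcripts described here are those of 10 mouse genes that encode the enzymes of fatty acid synthesis, elongation and desaturation: Fasn, Acly, Acss2, Me1, Scd1, Scd2, Elovl5, Elovl6, Fads1 and Fads2. They were chosen by gene name, not by any measured value, and were 10 of the 62266 gene rows of the table. All 10 passed the filter on low values (at least 1 FPKM in at least 5 of the 30 libraries), as did 18035 gene rows in all. FPKM is the number of fragments per kilobase of transcript, scaled to library size, so levels of different genes can be set side by side per length.

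RNA was sequenced from 30 cultures of 3T3-L1, an established mouse fibroblast line that is used as a model of fat cell formation, in 6 groups of 5. The groups were cultures given quizalofop-p-ethyl (QpE), a herbicide, at 50 µM for 6 h, for 24 h and for 12 days, and a group of control cultures with no QpE under each of the labels 6 h, 24 h and 12 days. All groups had been moved to a differentiation medium with insulin and IBMX, a phosphodiesterase inhibitor, before QpE was added, and all carry the same label of differentiated cells, the 6 h cultures included. The days listed in the protocol add up to less than 12, and the time is taken from the label. The labels number the cultures 1 to 5 in each group and do not say whether they were grown on separate days, so p-values measure the spread between these cultures, which may be technical. No label states that the same number in different groups marks a pair, so comparisons by number only describe the values. The comparisons answer which members differed with QpE at each time and how the members changed over time in controls.

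Cells make palmitate from acetyl-CoA in the cytosol. Acly splits citrate to give acetyl-CoA, Acss2 makes it from acetate, and Me1, malic enzyme, supplies NADPH. Fasn, fatty acid synthase, joins malonyl units into palmitate. Elovl6 lengthens palmitate and other saturated chains of similar length, and Elovl5 lengthens polyunsaturated chains. Scd1 and Scd2 place a double bond in saturated chains, and Fads1 and Fads2 add further double bonds to polyunsaturated chains. Many of these genes are known targets of the transcription factors SREBP-1, ChREBP and LXR, and the synthesis enzymes are known to accumulate as 3T3-L1 cells turn into fat cells.

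The label of differentiated cells was checked against marker genes. At 12 days the summed level of 12 adipocyte markers ran from 3533 to 10145 FPKM in QpE cultures, against 1177 to 6420 FPKM in control cultures. At 24 h it ran from 428 to 678 FPKM with QpE and from 307 to 777 FPKM in controls, and at 6 h from 137 to 532 FPKM with QpE and from 202 to 474 FPKM in controls. Lep, the adipokine leptin, was at 0 in 22 of the 30 libraries. The summed level of 10 preadipocyte and fibroblast markers at 12 days was 455 to 2543 FPKM with QpE, against 5438 to 6400 FPKM in controls. Of markers of other cell types, 5 endothelial markers summed to at most 0.633 FPKM in any library. At 12 days 6 macrophage markers summed to 2.11 to 5.37 FPKM with QpE and 1.13 to 3.84 FPKM in controls, where Cd68 reached 5.35 FPKM, while Ptprc and Adgre1 stayed at or below 0.031 FPKM. There 5 brown adipocyte markers summed to 0.784 to 25.5 FPKM with QpE and 0.515 to 2.39 FPKM in controls. Among them Elovl3, an elongase that is also a brown fat marker, reached 24.4 FPKM with QpE, while Ucp1, the uncoupling protein, was at 0 in 28 libraries. The 5 skeletal muscle markers summed to 8.88 to 18.6 FPKM with QpE and 4.77 to 9.72 FPKM in controls at 12 days, most of it Des, an intermediate filament gene, while the muscle factors Myod1 and Myog were at 0 in all 30 libraries.

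Cultures 3 and 4 stood apart at 12 days in both groups. Their summed adipocyte markers were 4922 and 3533 FPKM with QpE, against 8204 to 10145 FPKM in QpE cultures 1, 2 and 5. In control cultures 3 and 4 they were 1177 and 1790 FPKM, against 5075 to 6420 FPKM in control cultures 1, 2 and 5. The split was seen in the data and no label records it, and whether it acts on the members' results through the share of fat cells or otherwise was not tested. In bulk RNA, fewer cells of a type and less RNA per cell cannot be told apart. The differences between QpE and control at 12 days are given for each set beside the value over all 5 cultures.

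Of all pairs of members, those among Fasn, Acss2 and Me1 had the highest Pearson r of log2(FPKM + 1) over the 30 libraries: 0.95 between Fasn and Acss2, 0.93 between Fasn and Me1 and 0.97 between Acss2 and Me1. With these 3 genes Scd1 had r of 0.87 to 0.91, Scd2 of 0.71 to 0.85 and Fads1 of 0.67 to 0.82, while r between Fasn and Elovl6 was -0.51. The libraries share groups and a time course, so these values describe the series and carry no test. The sequences upstream of the start sites of Fasn, Acss2, Me1 and Elovl6 are shown for comparison, from RefSeq on GRCm38.p6. The first 3 are the members whose values by gene name moved together most over the 30 libraries, and Elovl6 is one that differed from them. By gene name Scd1 counts only its named transcript, which left out 91.0% of its locus in QpE culture 1 at 12 days. The r of the whole Scd1 locus with the other members was not computed, so the ranking holds for values by gene name only. Each window holds the 250 bases before the annotated start site, 5′ to 3′ on the gene's strand, at chr11:120824548-120824797 on the minus strand for Fasn, chr2:155517793-155518042 on the plus strand for Acss2, chr9:86695915-86696164 on the minus strand for Me1 (the first of 2 windows listed for it) and chr3:129532136-129532385 on the plus strand for Elovl6. In these data the main transcripts of Acss2 and Me1 begin upstream of that site, at 155517948 and 86695953. The 4-exon transcript of Elovl6 does so too, at 129532355. The last bases of these windows therefore lie inside those transcripts. Capitals mark matches, on either strand, to the motifs named after the sequences.
Fasn: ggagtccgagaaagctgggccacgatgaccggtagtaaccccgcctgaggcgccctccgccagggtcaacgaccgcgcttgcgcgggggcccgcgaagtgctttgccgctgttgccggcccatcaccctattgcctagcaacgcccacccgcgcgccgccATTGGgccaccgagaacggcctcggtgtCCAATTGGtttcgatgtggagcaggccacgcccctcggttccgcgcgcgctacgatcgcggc
Acss2: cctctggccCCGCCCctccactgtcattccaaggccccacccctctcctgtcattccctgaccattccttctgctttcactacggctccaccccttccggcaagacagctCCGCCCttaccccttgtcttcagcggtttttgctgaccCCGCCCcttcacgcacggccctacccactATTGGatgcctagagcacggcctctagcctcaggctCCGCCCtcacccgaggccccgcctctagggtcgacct
Me1: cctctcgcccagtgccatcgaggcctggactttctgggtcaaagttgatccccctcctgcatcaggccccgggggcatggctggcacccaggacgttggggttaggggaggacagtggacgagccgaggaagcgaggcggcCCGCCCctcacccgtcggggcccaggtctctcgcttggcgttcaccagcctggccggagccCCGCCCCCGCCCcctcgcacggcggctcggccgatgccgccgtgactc
Elovl6: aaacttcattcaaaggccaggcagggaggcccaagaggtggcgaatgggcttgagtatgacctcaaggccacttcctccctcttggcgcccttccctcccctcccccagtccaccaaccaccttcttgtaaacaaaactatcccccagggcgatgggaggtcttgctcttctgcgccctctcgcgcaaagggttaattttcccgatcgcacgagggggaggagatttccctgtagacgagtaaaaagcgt

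The motifs searched on both strands were the sterol regulatory element TCACNCCAC, the E-box CACGTG, the CCAAT box CCAAT and the GC box GGGCGG. They were found in 1.05%, 6.02%, 33.8% and 32.7% of all 32851 promoter windows of the same length. The Fasn window held 3 CCAAT boxes, at positions -90, -62 and -59 from the start site, of which the last 2 overlap on opposite strands in one run of capitals. The Acss2 window held 1 CCAAT box at -73 and 4 GC boxes, the Me1 window held 3 GC boxes and no CCAAT box, and the Elovl6 window held none of the 4 motifs. For Acss2 the CCAAT box and the GC box at -37 lie inside its main transcript. None of the 4 windows held the sterol regulatory element or the E-box in these letters. A match describes these letters and is not a binding site, and 7 of the 10 members had a window in the table. Scd1, Scd2 and Fads1 are named only.

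Fasn was split between the sets of cultures in both groups. At 12 days it had 481, 504, 66.0, 63.7 and 484 FPKM in QpE cultures 1 to 5, against 275, 248, 63.0, 51.2 and 248 FPKM in control cultures 1 to 5. Cultures 3 and 4 of both groups lay near the 24 h levels, which were 48.9 to 57.9 FPKM with QpE and 47.1 to 54.1 FPKM in controls, while cultures 1, 2 and 5 were several times higher and higher with QpE at each number. Over all 5 cultures the groups overlapped, and the log2 difference was 0.63 ± 0.80 (SE, n = 5 each; adjusted p = 0.701, limma). Among cultures 1, 2 and 5 alone, a choice made after seeing the data, Fasn averaged 489.7 ± 12.1 FPKM with QpE and 257 ± 15.5 FPKM in controls (SD, n = 3 each), and the difference of 0.93 passed the test (adjusted p = 0.0242), which called 0.405% of all rows. Among cultures 3 and 4 alone it was 0.19 (adjusted p = 0.480), where 0% of all rows were called and 3933 rows had an unadjusted p under 0.05. At 6 h Fasn had 37.6 to 46.1 FPKM with QpE and 38.2 to 43.6 FPKM in controls.

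**Figure D1:**
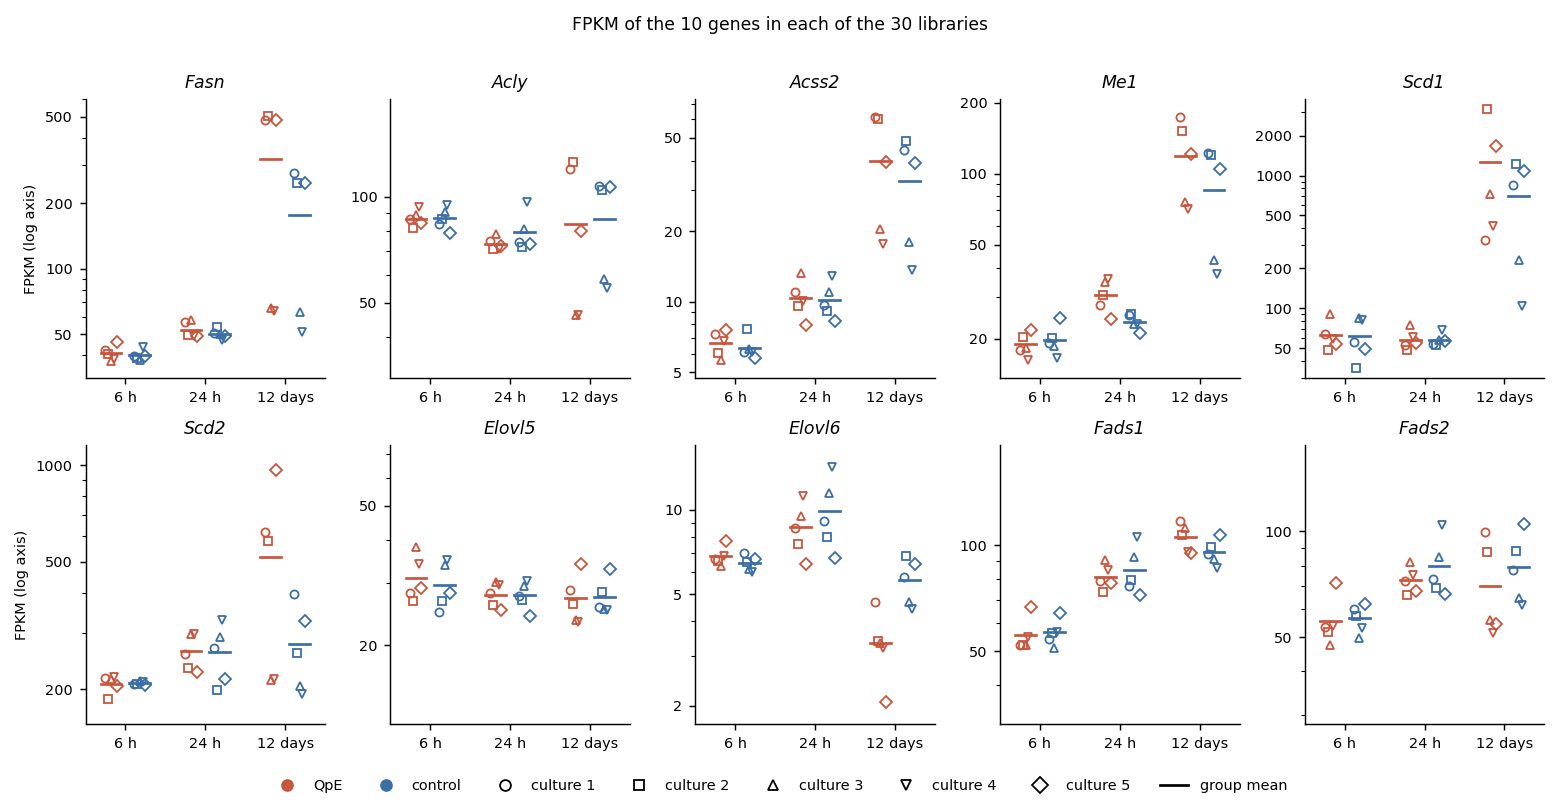
FPKM of the 10 genes (log axis) in each of the 30 libraries at 6 h, 24 h and 12 days, with QpE in red left of control in blue, a symbol for each culture number and a bar at the group mean. Fasn, Acss2, Me1 and Scd2 are higher at 12 days in cultures 1, 2 and 5 than in cultures 3 and 4 of the same group, and Elovl6 has its lowest group mean at 12 days with QpE, 3.35 FPKM.

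The genes that supply acetyl-CoA and NADPH divided. Me1 had 173, 151, 76.1, 70.7 and 121 FPKM in QpE cultures 1 to 5 at 12 days, against 123, 119.8, 43.1, 37.5 and 105 FPKM in control cultures 1 to 5. It was higher with QpE at every number, by 1.16 to 1.89 times, but the groups overlapped because cultures 3 and 4 lay below the rest. Over all 5 cultures the log2 difference in Me1 was 0.55, with an SE of 0.41 (limma, adjusted p = 0.488). Among cultures 1, 2 and 5 it was 0.35 (adjusted p = 0.266), and among cultures 3 and 4 it was 0.85 (adjusted p = 0.0839). Both sets were chosen after seeing the data. With unnamed transcripts joined, the adjusted p in cultures 3 and 4 was 0.0360, where 8.36% of all rows were called. No unnamed transcript lies in the Me1 locus, so joining left its values unchanged. Acss2 had 61.2, 60.4, 20.3, 17.6 and 39.6 FPKM with QpE and 44.5, 48.6, 17.96, 13.7 and 38.96 FPKM in controls, a difference of 0.26 ± 0.46 (adjusted p = 0.798) with overlapping groups, and of 0.26 in either set of cultures. Acly had 120.1, 125.4, 46.2, 46.2 and 79.7 FPKM with QpE and 107, 105, 58.4, 55.0 and 107 FPKM in controls. QpE was the higher for Acly at 2 of 5 numbers, and its difference was -0.12 ± 0.35 (adjusted p = 0.886), 0.0011 in cultures 1, 2 and 5 and -0.29 in cultures 3 and 4 (adjusted p = 0.130).

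Me1 was also the member with the lowest unadjusted p at 24 h. It had 27.8, 30.5, 34.7, 35.6 and 24.2 FPKM in QpE cultures 1 to 5, against 25.3, 25.5, 22.997, 22.971 and 21.03 FPKM in control cultures 1 to 5. QpE was higher at all 5 numbers, by 1.10 to 1.55 times, but deviations of same-numbered cultures correlated at only -0.00629 to 0.107 at 24 h. The ranges overlapped, since QpE culture 5 lay below control cultures 1 and 2. The difference was 0.35 ± 0.11 (SE; unadjusted p = 0.00883) and did not pass over all genes (limma, adjusted p = 0.635).

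Scd1 had the highest group means of the members at 12 days, while Scd2 had the highest at 6 h and 24 h. The span of its group means was the widest of the 10, and its deposited value depended on how its reads were shared among transcripts. The locus on chromosome 19 (minus strand, 44394451 to 44407709, GRCm38) holds 1 named transcript of 6 exons and 3 assembled transcripts without a gene name that span nearly the same bases. The named transcript had 325, 3162, 727, 418 and 1668 FPKM in QpE cultures 1 to 5 at 12 days, against 846, 1218, 230.5, 104 and 1076 FPKM in control cultures 1 to 5. QpE culture 1 was the lowest of its group by this measure. The 3 unnamed transcripts held 91.0%, 15.5%, 5.29%, 28.4% and 53.3% of the locus in QpE cultures 1 to 5, and 42.4%, 17.9%, 5.12%, 27.2% and 27.7% in control cultures 1 to 5.

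Summed over named and unnamed transcripts, the Scd1 locus had 3603, 3741, 768, 584 and 3568 FPKM with QpE, against 1470.4, 1484, 243, 143 and 1489 FPKM in controls. QpE culture 1 then lay with cultures 2 and 5, and QpE was the higher at all 5 numbers, by 2.40 to 4.09 times. The groups still overlapped, because QpE cultures 3 and 4 lay below control cultures 1, 2 and 5. The log2 difference was 0.86 ± 0.84 (SE; adjusted p = 0.608) for the named transcript and 1.51 ± 0.84 (95% interval -0.36 to 3.38; adjusted p = 0.277) for the locus, with limma in both. In cultures 1, 2 and 5 alone, a set chosen after seeing the data, the locus averaged 3637 ± 91.5 FPKM with QpE and 1481 ± 9.69 FPKM in controls (SD, n = 3 each). The difference there was 1.30 (adjusted p = 0.0312), where 1.04% of all rows of the joined table were called. In cultures 3 and 4 alone the difference was 1.84 (adjusted p = 0.0502), where 8.36% were called. For the named transcript alone the differences in these sets were 0.21 in cultures 1, 2 and 5 (adjusted p = 0.914) and 1.82 in cultures 3 and 4 (adjusted p = 0.202). One of the unnamed transcripts averaged 487 FPKM with QpE, with 1445 FPKM in culture 1 and 0 in culture 4, and 0.192 FPKM in controls. How the assembly divided reads among such similar transcripts was not tested.

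**Figure D2:**
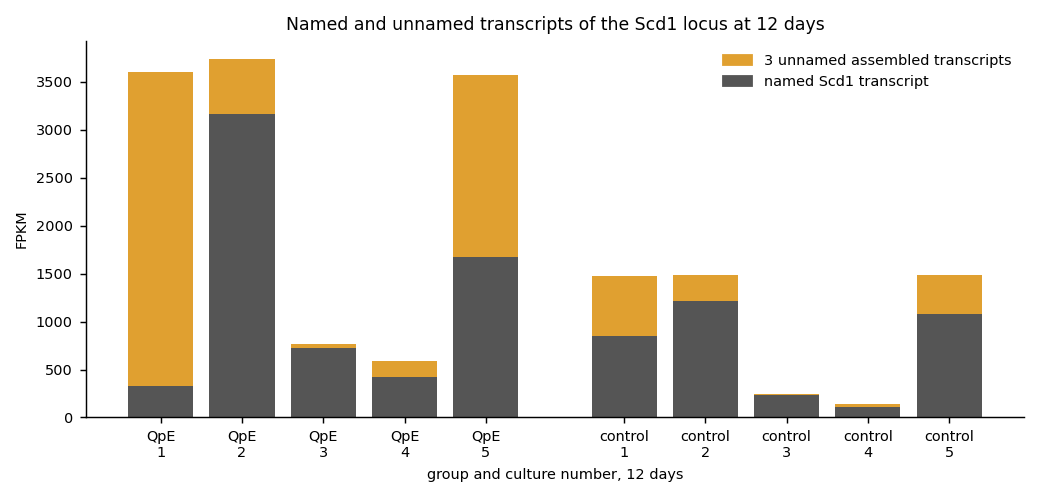
Stacked FPKM of the named Scd1 transcript (grey) and of the 3 unnamed transcripts of its locus (orange) in the 10 libraries at 12 days, QpE cultures 1 to 5 left of control cultures 1 to 5. The named part of QpE culture 1 is 325 FPKM, while its sum of 3603 FPKM lies beside those of QpE cultures 2 and 5.

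Scd2, the other stearoyl-CoA desaturase described here, had 618, 578, 214, 215 and 965 FPKM in QpE cultures 1 to 5 at 12 days, against 397, 259, 204, 193 and 327 FPKM in control cultures 1 to 5. QpE was higher at all 5 numbers, with 2.95 times the control level at number 5 and 1.05 times at number 3. The difference was 0.71 ± 0.44 (SE; adjusted p = 0.388), 1.12 in cultures 1, 2 and 5 (adjusted p = 0.120) and 0.11 in cultures 3 and 4 (adjusted p = 0.440). A 6-exon unnamed transcript whose span covers Scd2 held 166 FPKM in control culture 2 and 93.7 FPKM in control culture 5. With it added, controls 2 and 5 had 425 and 421 FPKM, beside 578 and 965 FPKM in QpE cultures 2 and 5. Scd1 and Scd2 share 79 stretches of 75 bases, the read length, so some of their reads can be assigned to either, and the same holds for Scd1 and Scd3 (111 stretches). Scd3 was listed at 0 in all libraries of the other 5 groups, and in the QpE group at 12 days it had 0 to 4.95 FPKM. No stretch of that length was shared between Elovl5 and Elovl6, between Fads1 and Fads2, or between Acss2 and Acss1 or Me1 and its paralogs.

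Elovl6 was the only one of the 10 members that was lower with QpE at all 5 numbers at 12 days, while Fads2 was lower at 4, and Acly and Elovl5 at 3 each. Elovl6 had 4.70, 3.41, 3.35, 3.22 and 2.06 FPKM in QpE cultures 1 to 5, against 5.78, 6.86, 4.67, 4.44 and 6.43 FPKM in control cultures 1 to 5. The QpE level was 0.321 to 0.813 times the control level. QpE culture 1 overlapped control cultures 3 and 4, and the gene did not follow the split between cultures with QpE, where cultures 3 and 4 averaged 3.28 FPKM and cultures 1, 2 and 5 averaged 3.39 FPKM. The difference was -0.62 ± 0.19 (SE; 95% interval -1.04 to -0.20; unadjusted p = 0.00774) and did not pass over 18035 rows (adjusted p = 0.0857). In cultures 1, 2 and 5 it was -0.79 (adjusted p = 0.178) and in cultures 3 and 4 it was -0.37 (adjusted p = 0.323). Over all 5 cultures it passed in the table with unnamed transcripts joined to named genes, which has the same Elovl6 values and 14616 tested rows, of which 12.2% were called (adjusted p = 0.0439), but not there with the culture number as a block (adjusted p = 0.0518). Both of its main transcripts were counted: the 5-exon one averaged 1.47 FPKM with QpE and 3.08 FPKM in controls, and the 4-exon one 1.88 FPKM with QpE and 2.40 FPKM in controls.

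The remaining elongase and desaturases differed less. Elovl5 had 23.3 to 34.1 FPKM with QpE at 12 days and 25.3 to 33.0 FPKM in controls, a difference of -0.02 with a 95% interval of -0.29 to 0.25 (0.03 in cultures 1, 2 and 5 and -0.10 in cultures 3 and 4). Fads1 had 117, 107, 112, 95.4 and 94.8 FPKM in QpE cultures 1 to 5 and 94.7, 98.6, 91.5, 86.0 and 107 FPKM in control cultures 1 to 5. It was higher with QpE at 4 of 5 numbers (difference 0.14, 95% interval -0.07 to 0.34, adjusted p = 0.433), by 0.08 in cultures 1, 2 and 5 and 0.22 in cultures 3 and 4. Fads2 had 99.9, 87.7, 55.9, 51.4 and 54.6 FPKM with QpE and 77.8, 87.8, 64.7, 61.7 and 105 FPKM in controls. QpE culture 5 lay with the low cultures 3 and 4 for Fads2, and the difference was -0.21 (95% interval -0.70 to 0.29, adjusted p = 0.643), -0.19 in cultures 1, 2 and 5 and -0.23 in cultures 3 and 4.

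**Figure D3:**
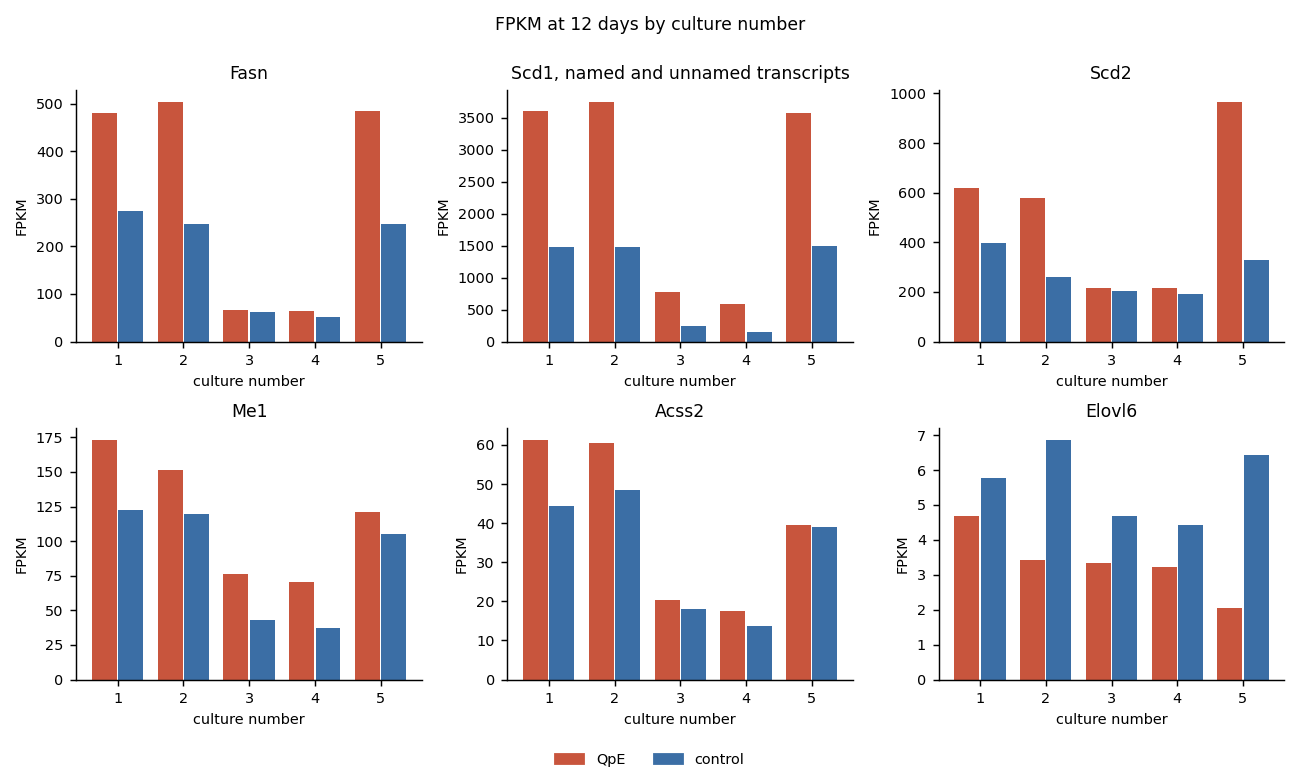
FPKM at 12 days by culture number, with QpE in red left of control in blue, for Fasn, the Scd1 locus (named and unnamed transcripts), Scd2, Me1, Acss2 and Elovl6. QpE bars are the higher at all 5 numbers in the first 5 panels and the lower at all 5 in the Elovl6 panel, and cultures 3 and 4 are low in both groups in the first 5.

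Over all 5 cultures, no member was called higher or lower with QpE at any time at an adjusted p of 0.05 with limma in the table by gene name without pairing. With unnamed transcripts joined, deviations of same-numbered cultures correlated at 0.157 to 0.380 at 12 days. QpE cultures 1 and 2 correlated best there with control cultures 2 and 5, not with their own numbers. A fit with the culture number as a block, added after seeing the data, called the Scd1 locus (1.51, adjusted p = 0.0160), Fasn (0.64, adjusted p = 0.0398) and Me1 (0.55, adjusted p = 0.0280) higher, where 19% of all rows were called. No label states this pairing, and it was judged on the same 12 day values that the fit tests. Its calls therefore only describe the values. By gene name with the block no member was called. At 12 days the test by gene name without pairing called 4.86% of all 18035 rows (384 higher, 2.13%, and 493 lower, 2.73%), 3852 rows had an unadjusted p under 0.05, and 1 of the 10 members did (Elovl6). At 24 h it called 0.0166% of all rows (3 rows; 1291 at an unadjusted p under 0.05, with 1 member, Me1), and at 6 h 0.00554% (1 row; 596 at an unadjusted p under 0.05, with no member). No member's groups were free of overlap at 6 h, 24 h or 12 days, against 0.455%, 1.51% and 10.4% of all rows. The median log2 difference of the members at 12 days was 0.20, against -0.01 over all rows, and at 6 h it was 0.02, against -0.01. The difference between the QpE effects at 12 days and 24 h was called for no member and for 0.0277% of all rows (5 rows; 2374 at an unadjusted p under 0.05, with no member). Among cultures 1, 2 and 5 alone, a set chosen after seeing the 12 day levels, that difference passed for Fasn (0.92, adjusted p = 0.00822), where 0.305% of all rows were called. In the joined table with this set it passed for the Scd1 locus (1.37, adjusted p = 0.000463), where 0.698% were. Over all 5 cultures the adjusted p with limma was 0.830 for Fasn and 0.415 for the locus. The choice cut the spread: the SD of Fasn with QpE at 12 days was 233 FPKM over all 5 cultures and 12.1 FPKM in the set. The intervals at 6 h differed in width. For Fasn the difference was 0.03 with a 95% interval of -0.11 to 0.18, and for Elovl6 0.07 with an interval of -0.11 to 0.24. The widest was that of Scd1, with a difference of 0.08 and an interval of -0.49 to 0.64.

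**Figure D4:**
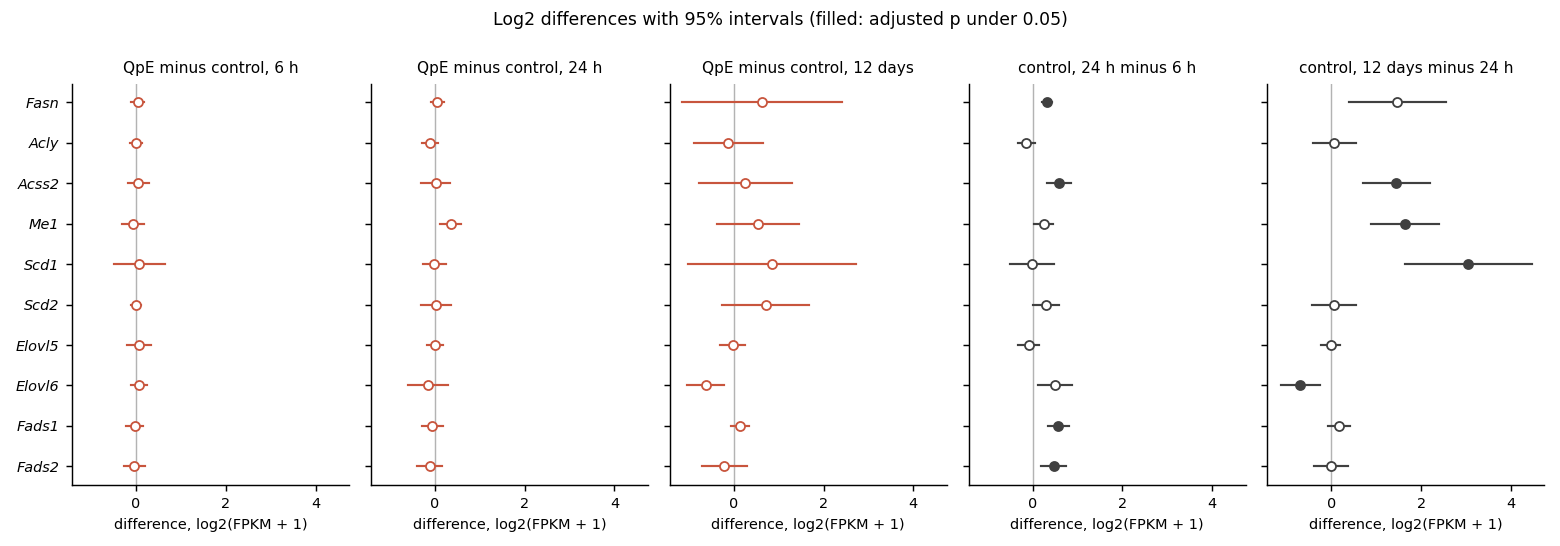
Log2 differences of the 10 genes with 95% intervals (limma on log2(FPKM + 1)), for QpE minus control at 6 h, 24 h and 12 days in red and for the control time course in grey; filled points passed an adjusted p of 0.05. Intervals at 12 days are several times wider than at 6 h for Fasn, Scd1 and Scd2, and filled points occur only in the 2 time course panels.

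In control cultures between 6 h and 24 h, 4 members rose: Acss2, Fads1, Fads2 and Fasn. The test called 12.4% of all rows in this comparison (5.62% higher and 6.79% lower), and 13.1% of all rows had groups that did not overlap. Acss2 had 9.64, 9.09, 11.04, 12.8 and 8.24 FPKM in 24 h cultures 1 to 5, against 6.08, 7.65, 6.28, 6.10 and 5.72 FPKM in 6 h cultures 1 to 5, a difference of 0.59 ± 0.12 (SE; adjusted p = 0.0131). Fads1 had 72.1 to 105 FPKM at 24 h and 50.9 to 64.2 FPKM at 6 h (0.58 ± 0.11, adjusted p = 0.00796). Fads2 had 66.5 to 104 FPKM at 24 h and 49.7 to 62.0 FPKM at 6 h (0.47 ± 0.12, adjusted p = 0.0340). Fasn had 47.1 to 54.1 FPKM at 24 h and 38.2 to 43.6 FPKM at 6 h (0.32 ± 0.05, adjusted p = 0.00420), the least of the 4 rises. The groups did not overlap for any of the 4. The Fads2 call was lost without 24 h culture 1 or 3 or without 6 h culture 1, 2, 3 or 4, with adjusted p of 0.0514 to 0.0808.

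Elovl6 had 9.09, 7.998, 11.5, 14.2 and 6.74 FPKM in control cultures 1 to 5 at 24 h and 5.99 to 7.03 FPKM at 6 h, and its difference of 0.51 did not pass (adjusted p = 0.0857). It passed without 24 h culture 5 (0.62, adjusted p = 0.0348). Me1 (0.25, adjusted p = 0.141) passed without 6 h culture 5 (0.32, adjusted p = 0.0292). Scd2 (0.30, adjusted p = 0.173) did not pass. Scd1, Acly and Elovl5 differed by -0.01, -0.13 and -0.09 and had overlapping groups. The QpE cultures had similar levels at the same times: Acss2 had 7.91 to 13.2 FPKM at 24 h and 5.64 to 7.56 FPKM at 6 h, and Fads1 had 73.4 to 91.0 FPKM at 24 h and 51.9 to 66.9 FPKM at 6 h.

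In control cultures at 12 days against 24 h, Scd1, Me1 and Acss2 rose and Elovl6 fell. The test called 20.5% of all rows here (8.11% higher and 12.3% lower). The named Scd1 transcript averaged 695 ± 502 FPKM at 12 days and 58.0 ± 6.10 FPKM at 24 h (SD, n = 5 each), a difference of 3.05 ± 0.63 (SE; adjusted p = 0.00788), and the locus rose by 3.36 (adjusted p = 0.00308). Me1 averaged 85.5 ± 41.9 FPKM at 12 days and 23.6 ± 1.86 FPKM at 24 h (1.65 ± 0.34, adjusted p = 0.00751), and Acss2 32.7 ± 15.9 FPKM at 12 days and 10.2 ± 1.80 FPKM at 24 h (1.45 ± 0.34, adjusted p = 0.0138). The groups did not overlap for these 3 members, as for 19.2% of all rows. Elovl6 averaged 5.64 ± 1.06 FPKM at 12 days and 9.91 ± 2.98 FPKM at 24 h, with overlapping groups (-0.69 ± 0.19, adjusted p = 0.0304). Fasn averaged 177 ± 110.1 FPKM at 12 days and 50.2 ± 2.57 FPKM at 24 h and did not pass (1.47 ± 0.48, adjusted p = 0.0573). It passed with unnamed transcripts joined (1.47, adjusted p = 0.0346), where 34% of all rows were called, and without 12 day culture 3 (1.76, adjusted p = 0.0272) or culture 4 (1.83, adjusted p = 0.0121).

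The late rise in controls is also given for each set of cultures. The sets were drawn after seeing the 12 day levels, so a larger rise in cultures 1, 2 and 5 follows from that choice. The calls within a set therefore do not test the split, and no label links a 24 h culture to the 12 day culture of the same number. In cultures 1, 2 and 5, 6 members passed, against 8.29% of all rows called higher: Scd1 (4.22), Fasn (2.30), Me1 (2.23), Acss2 (2.17), Acly (0.53) and Fads1 (0.39). In cultures 3 and 4 no member passed in the table by gene name, where 3.48% of all rows were called either way, with Scd1 at 1.29, Me1 at 0.78, Acss2 at 0.37 and Fasn at 0.22. Acly and Scd2 were 0.53 and 0.52 in cultures 1, 2 and 5, and -0.63 and -0.64 in cultures 3 and 4 (adjusted p = 0.0825 and 0.0648 in cultures 3 and 4). The Elovl6 fall was -0.28 in cultures 1, 2 and 5 and -1.31 in cultures 3 and 4, and passed in neither set alone (adjusted p = 0.226 and 0.0537). With unnamed transcripts joined, where 18.3% of all rows were called in cultures 3 and 4, Me1 and Scd1 rose there (0.78 and 1.47, adjusted p = 0.0228 and 0.0494), and Acly, Scd2 and Elovl6 fell (adjusted p = 0.0380, 0.0289 and 0.0213). The Elovl6 call by gene name over all 5 cultures was lost without 12 day culture 1, 3 or 4 or 24 h culture 1, 3 or 4, with adjusted p of 0.0539 to 0.0728.

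**Figure D5:**
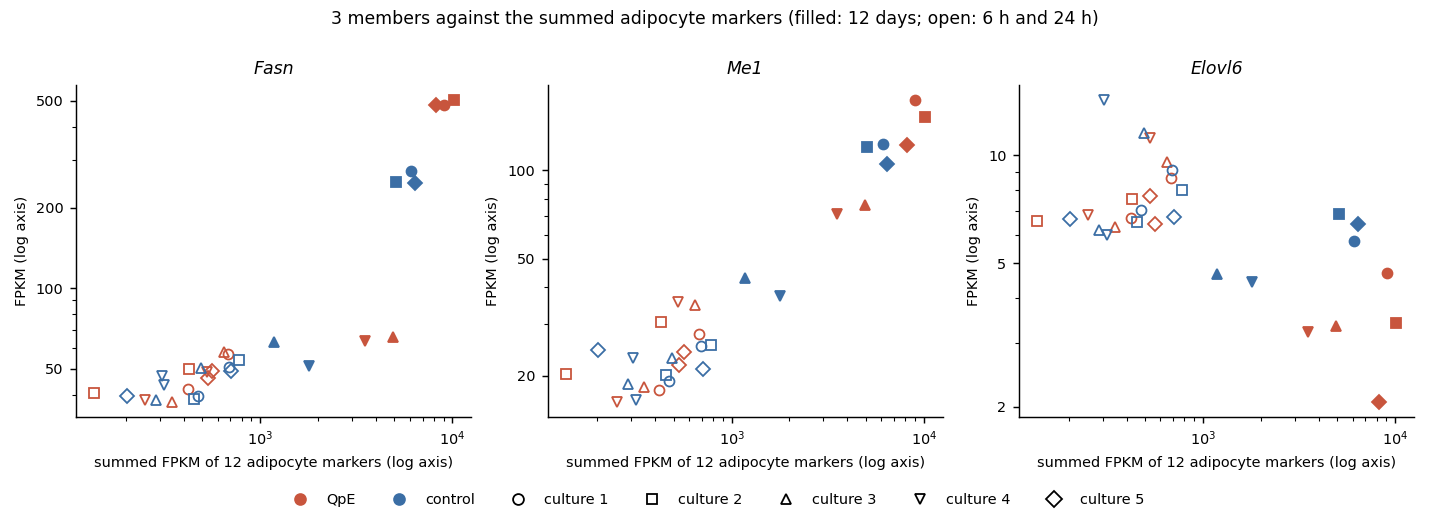
FPKM of Fasn, Me1 and Elovl6 (log axis) against the summed FPKM of 12 adipocyte markers (log axis) in the 30 libraries, QpE in red and control in blue, filled at 12 days and open at 6 h and 24 h, with a symbol per culture number. Fasn at 12 days lies between 51.2 and 66.0 FPKM in cultures 3 and 4 and between 248 and 504 FPKM in cultures 1, 2 and 5, while Elovl6 lies below 7 FPKM in every 12 day library.

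The span between the lowest and the highest group mean on the log2 scale ordered the members as Scd1 (3.92), Me1 (2.503), Fasn (2.43), Acss2 (2.30), Elovl6 (1.31), Scd2 (1.07), Fads1 (0.91), Fads2 (0.51), Acly (0.24) and Elovl5 (0.19). For the members with a span of at least 1, the tested genes with the most similar log2(FPKM + 1) over the 30 libraries were Klf15 for Fasn (Pearson r = 0.99), followed by Hcar2, and Bckdhb for Me1 (0.99), followed by Etfdh and Hadhb. They were Echdc1 for Acss2 (0.98), followed by Klb and Mccc1, and Insig1 for Scd1 (0.95), followed among named genes by S100a1. Insig1 encodes an anchor that holds the SREBP escort protein in the endoplasmic reticulum. For Scd2 the most similar gene was Cyp51 (0.92), a sterol demethylase of cholesterol synthesis, followed among named genes by Atg101. For Elovl6 it was Tmem98 (0.92), followed by Usp11 and Cnpy4. These libraries share 6 groups, so the values describe likeness over one time course.

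Other genes of the pathway were taken from lists. With QpE at 12 days 2.13% of all rows were called higher and 2.73% lower. Of 10 tested genes for malonyl-CoA and other steps of synthesis, none was called with QpE at 12 days (median 0.34, against -0.01 over all rows). Acaca, the acetyl-CoA carboxylase that makes malonyl-CoA, had 29.4, 3.10, 3.00, 9.86 and 18.98 FPKM in its named transcripts in QpE cultures 1 to 5 and 16.8, 16.8, 6.91, 4.04 and 17.4 FPKM in control cultures 1 to 5. With the unnamed transcripts of its locus joined, it had 66.2, 57.8, 24.96, 22.1 and 44.95 FPKM with QpE and 40.7, 37.8, 15.9, 13.8 and 31.5 FPKM in controls, and the difference was 0.61 (95% interval -0.25 to 1.47, adjusted p = 0.347) in place of -0.22 (adjusted p = 0.881). Of 13 tested genes for other steps of elongation and desaturation, 1 rose with QpE at 12 days (Hacd2, a dehydratase of the elongation cycle, 1.28 ± 0.27, adjusted p = 0.0347) and none fell. Of 14 tested genes for citrate and NADPH supply, none was called (median 0.46). With unnamed transcripts joined, where 12.2% of all rows were called, 3 of these 14 were called higher (Slc25a1, the mitochondrial citrate carrier, with Mdh1 and Me2, named here after their values were seen). Of the 13 elongation and desaturation genes Hacd2 was then called higher and Hacd4 lower, and of the 10 synthesis genes none was called.

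Of 19 tested regulators of lipogenesis, 1 rose and 1 fell with QpE at 12 days, against 2.13% of all rows called higher and 2.73% lower. Ppargc1b, a coactivator of SREBP and nuclear receptors, differed by 0.94 ± 0.18 (adjusted p = 0.0279), and Srebf2, which encodes SREBP-2, by -0.38 ± 0.07 (adjusted p = 0.0260). Srebf1, which encodes SREBP-1, had 23.5, 38.5, 18.6, 15.5 and 28.3 FPKM with QpE and 34.2, 33.6, 28.1, 22.1 and 26.8 FPKM in controls (difference -0.26, adjusted p = 0.560). Mlxipl, which encodes ChREBP, ran from 0.562 to 6.94 FPKM with QpE and from 0.0911 to 4.16 FPKM in controls (0.56, adjusted p = 0.660). Nr1h3, which encodes LXR alpha, had 34.04, 35.8, 12.5, 13.9 and 41.7 FPKM with QpE and 22.6, 17.8, 7.12, 7.31 and 23.6 FPKM in controls (0.78, adjusted p = 0.363), and was higher with QpE at all 5 numbers. With unnamed transcripts joined, where 12.2% of all rows were called at 12 days, 3 of the 19 regulators were higher (Insig2, Pparg and Ppargc1b) and 1 lower (Srebf2). At 6 h and 24 h no gene of the 4 lists was called with QpE. Beside these, 3 of 9 tested preadipocyte and fibroblast markers fell with QpE at 12 days (Lum, Col1a1 and Dlk1, by 2.47, 1.87 and 1.67 on the log2 scale), and no adipocyte marker of 11 was called (median 0.95). Of 2 tested skeletal muscle markers Des rose (0.91, adjusted p = 0.0462), the 1 tested macrophage marker was not called, and no brown adipocyte or endothelial marker passed the filter on low values. The part of these markers in the members' values was not tested.

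In the control time course 5.62% of all rows were called higher and 6.79% lower between 6 h and 24 h, and 8.11% higher and 12.3% lower at 12 days against 24 h. Between 6 h and 24 h, 5 of 14 genes for citrate and NADPH supply rose, led by Idh1 (0.50), Mdh1 (0.45) and Idh2 (0.43), and none fell. Of the other elongation and desaturation genes 4 of 13 rose (Hacd4, Cyb5a, Cyb5b and Tecr) and 1 fell, and of the regulators 2 of 19 rose (Pparg by 0.64 and Srebf2 by 0.35). Of the malonyl-CoA and synthesis genes none of 10 rose and 1 fell (Mecr, a mitochondrial enoyl reductase). At 12 days against 24 h, 9 of 14 supply genes rose and 1 fell. The largest rises were those of Mpc1, a subunit of the mitochondrial pyruvate carrier (3.16), Pcx, pyruvate carboxylase (2.01), Slc25a1 (1.52) and Cs, citrate synthase (1.34). Of the regulators 7 of 19 rose and 1 fell, with Lpin1 (1.80), Pparg (1.71), Nr1h3 (1.69), Cebpa (1.63) and Srebf1 (0.57) among the rises, while Mlxipl (1.34, adjusted p = 0.0660) did not pass. Of the synthesis genes 2 of 10 rose, Thrsp (4.37), which averaged 66.0 ± 58.3 FPKM at 12 days and 0.509 ± 0.456 FPKM at 24 h, and Mecr (0.86). Of the other elongation and desaturation genes 2 of 13 rose (Cyb5r1 and Hacd2) and 2 fell (Hacd4 and Cyb5r3). Adipocyte markers rose in 9 of 11 cases and fell in none.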

How the data were processed

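The authors deposited FPKM values per transcript, in 1 table of 150146 transcripts for all 30 libraries. Per the submitters' processing notes, reads were handled with HISAT, HISAT2 and StringTie on GRCm38. Their versions and settings are not given in the sources used, nor whether strand was used. The deposited columns of 10 libraries held 11 values just below 0, so they were handled as a score and those values set to 0. Library preparation used a directional poly(A) kit and paired reads of 75 bases, per the labels' protocols.

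Rows of the same gene name were summed, and unnamed assembled transcripts stayed apart by locus. In the joined table, 10567 unnamed transcripts were added to the only named gene of their locus. Genes with at least 1 FPKM in at least 5 of 30 libraries were tested on log2(FPKM + 1), a scale that understates changes of low genes, with limma 3.58.1 (R 4.3.3) with a mean-variance trend, over the compared groups, without pairing, two-sided, with Benjamini-Hochberg adjustment over 18035 rows and a threshold of 0.05. The fit was tested on simulated data with 200 genes changed 2-fold or 4-fold, for each QpE comparison. On average 8.72% to 10.1% of its calls were false, above the threshold of 0.05. For the alternative fit of all 30 libraries, 46.4% of calls were false at 12 days. It recovered 63.6% of 2-fold changes at 12 days, 75.2% at 24 h and 76.4% at 6 h. Exact counts and depth are unknown, FPKM summed to 413502 to 500489 per library, and no counting interval is given. Samples were grouped by label. All members were named, with the 4 other list genes of largest change among those called, and Srebf1, Mlxipl, Nr1h3 and Acaca always. The members and lists were chosen with earlier results of these data known. The alternatives were a pseudocount of 0.1, no filter, median-ratio and TPM scaling, a fit of all 30 libraries, the replicate number as a term, the most abundant transcript only, the joined table and leaving out each library. The sets of cultures 1, 2 and 5 and of cultures 3 and 4, and the use of these sets and of the replicate number with the joined table, were added after seeing the data. Deviations of same-numbered cultures from their group means at 12 days correlated at 0.157 to 0.380 in the joined table, and no label states what the numbers share.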

Additional observations from a re-analysis of the deposited data

Results flagged for a closer look

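Among 60 groups of 5 libraries, 1 for each of the 10 members and 6 groups, 2 had a library far from the other 4, and chance gives about 1 in 20 groups. Fasn had 43.6 FPKM in control culture 4 at 6 h, the highest of a group whose other libraries ran from 38.2 to 39.6 FPKM. Fads1 had 66.9 FPKM in QpE culture 5 at 6 h, the highest of a group whose other libraries ran from 51.9 to 54.9 FPKM. The unnamed transcripts of the Scd1 locus, which lie outside the count by gene name, averaged 1193 FPKM at 12 days with QpE and 271 FPKM in controls.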

How the results depend on the processing

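Of the single-gene differences recomputed under settings other than leaving out a library, 578 kept their side of the threshold, and their direction or, where not called, a value close to the one reported. A further 23 gained a call, 19 lost one, 8 changed sign by more than 1 SE without being called in either fit, and 2 changed sign and were called. With leave-one-out, 684 stayed, 4 gained a call and 12 lost one. Exact depth is unknown, and the causes of the changes were not tested.

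At 12 days no member was called higher with QpE by gene name. The count was 1 in cultures 1, 2 and 5, beside 47 of 18035 rows called higher. In the joined table of 14616 rows it was 2 with these cultures (102 rows higher) and 1 with cultures 3 and 4 (617 rows higher). With the replicate block in the joined table it was 3 (Scd1, Fasn and Me1, adjusted p = 0.0160, 0.0398 and 0.0280), beside 1283 rows called higher. No member was called lower, against 1 (Elovl6) in the fit of all 30 libraries (1598 of 18035 rows lower) and 1 in the joined table (1047 of 14616 rows lower). On simulated data the fit of all 30 libraries had 46.4% false calls at 12 days, against 9.37% for the fit of the compared groups. Between 24 h and 6 h in controls, 4 members rose, beside 1013 of 18035 rows called higher. This count was 1 in the fit of all 30 libraries (710 rows higher), 2 with the replicate block (571 rows higher), and 3 to 5 with a library left out. At 12 days against 24 h in controls, 3 rose, beside 1462 of 18035 rows called higher. In cultures 1, 2 and 5 it was 6 (1495 rows higher), and 6 also with these cultures in the joined table (1952 of 14616 rows higher). In cultures 3 and 4 it was 0 (323 rows higher), and with a library left out 3 to 4. There 1 member fell, against 0 with no filter, median-ratio scaling, the replicate block, the most abundant transcript only, either set of cultures, or the joined table with the replicate block or with cultures 1, 2 and 5. The count was 3 with cultures 3 and 4 in the joined table (1492 of 14616 rows lower), and 0 to 1 with a library left out. Under that setting of cultures 3 and 4 in the joined table, Acly (-0.63) and Scd2 (-0.64) reversed against 0.07 and 0.06 over all 5 cultures. The difference between the QpE effects at 12 days and 24 h was called higher for 0 members, beside 2 of 18035 rows. It was called higher for 1 in cultures 1, 2 and 5 (39 rows higher). In the joined table it was called for 1 with the replicate block (281 of 14616 rows higher) and for 2 with cultures 1, 2 and 5 (73 rows higher).

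By gene name, same-numbered cultures of the 2 groups had correlations of 0.0837 to 0.209 at 12 days, 0.0178 to 0.0813 at 6 h and -0.00629 to 0.107 at 24 h, so not every pair passed 0.1, and not every culture correlated best with its own number. In the joined table QpE cultures 1 and 2 at 12 days also correlated best with other numbers, control cultures 2 and 5. Every pair in that table passed 0.1 at 12 days, but not at 6 h or 24 h. The replicate block is given with the joined table at 12 days as a description only, since these correlations come from the same values that it tests. There it raised the calls over all rows to 2781, against 1787 without it.

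Over all rows, the 877 calls with QpE at 12 days became 364 with no filter, 376 with the most abundant transcript only and 1787 in the joined table. They became 73 in cultures 1, 2 and 5 and 0 in cultures 3 and 4. They became 2905 in the fit of all 30 libraries, which had 46.4% false calls on simulated data. The split of 384 higher and 493 lower became 166 and 527 with TPM scaling. The 2238 calls between 24 h and 6 h became 1269 with the replicate block and 1333 with the most abundant transcript only. The 3689 calls at 12 days against 24 h became 2431 with the most abundant transcript only and 628 in cultures 3 and 4, and their split of 1462 higher and 2227 lower became 1783 and 1661 with median-ratio scaling. The 5 calls for the difference between the effects became 364 in the fit of all 30 libraries, 31 with the replicate block and 147 in the joined table.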
